A study of Mus musculus with 21 samples.

Results

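The nuclear isoleucine tRNAs were followed in mouse cerebrum and cerebellum. They are the 5 rows of the tRNA count tables whose names start with Ile- and do not end in -MT, of 209 rows in the cerebrum table and 208 in the cerebellum table (204 shared). The names give the amino acid, the anticodon and an isodecoder number, an isodecoder being one of the tRNA sequences that share an anticodon: Ile-AAT-1, Ile-AAT-2-1 and Ile-AAT-3-1 carry the anticodon AAT, and Ile-TAT-1-1 and Ile-TAT-2 carry TAT. The 21 QuantM-tRNA-seq libraries, made from Trizol-extracted total RNA, came from C57BL/6J mice that were Polr3a mutant or wildtype: 4 mutant and 6 wildtype cerebrum libraries, and 5 mutant and 6 wildtype cerebellum libraries. Mutants and wildtypes alike were fed ad libitum and given tamoxifen, with recombination at postnatal day 28 and freezing of the tissue at day 42. No allele or Cre line is named in the labels. They do not state either whether each library is a different animal, and p-values therefore reflect library-to-library spread, which may be technical. A tRNA library holds no protein-coding markers, so neither the mutation nor the tissue could be checked in it.

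RNA polymerase III, whose largest subunit Polr3a encodes, transcribes all nuclear tRNA genes. Mammals read the isoleucine codons with these anticodons. The first base of AAT is converted to inosine, which pairs with AUU, AUC and also AUA, while TAT (UAU in the RNA) is dedicated to AUA. Genes for TAT isoleucine tRNAs carry an intron that must be spliced out of the precursor. Mitochondria have an isoleucine tRNA of their own, transcribed from mitochondrial DNA by a separate polymerase.

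That mitochondrial counterpart, with the anticodon GAT, served as a reference that RNA polymerase III does not make. Its sequence is shown because several comparisons below are made against it; it is the only isoleucine tRNA gene for which a sequence was used here. In GENCODE M21 (mm10) the gene mt-Ti lies on the plus strand of chromosome M from 3706 to 3774 and is 69 bases long. The anticodon, bases 30 to 32, is in capitals.
mt-Ti: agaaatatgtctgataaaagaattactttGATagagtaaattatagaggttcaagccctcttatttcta
RefSeq lists 16 nuclear isoleucine tRNA genes in mouse (GRCm38.p6), 15 with AAT and 1 with TAT in the symbol, and 8 of them stand on chromosome 13 between 21855320 and 23438182. Of these genes, 12 are 73 to 74 bases long and 4 are 93 to 96 bases long, 3 of the latter with AAT in the symbol. Whether a symbol gives the true anticodon was not checked here, and 1 TAT symbol stands beside 2 TAT rows in the tables. The symbols carry no isodecoder number, so the 5 rows could not be tied to single genes, and no position is given for them.

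Cerebrum libraries held 4365247 to 7614658 counts. In cerebellum, mutant 1 and wildtypes 1, 2, 3, 4 and 6 held 1628057 to 2286338, whereas mutants 2 to 5 and wildtype 5 held 4884664 to 7158467, so depth moved with genotype there. Mitochondrial tRNAs made up 12.8% to 15.7% of counts in the cerebrum mutants and 10.4% to 11.7% in the cerebrum wildtypes. They made up 14.0% to 21.2% in the cerebellum mutants, the highest being mutants 1 and 5, and 12.5% to 14.4% in the cerebellum wildtypes. A change in the mitochondrial share shifts every level that is scaled to the whole library, and results are therefore also given scaled to mitochondrial counts and within nuclear counts. With nuclear tRNAs only, the genotype log2 fold change of Ile-AAT-1 was 0.087 in cerebrum and 0.25 in cerebellum, and no isodecoder passed in either tissue.

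The 5 isodecoders spanned a wide range of abundance. Levels are library-scaled abundances (CPM, counts divided by the TMM-scaled library size) over the 21 libraries, mean ± SD, not corrected for length. Ile-AAT-1 was the main species at 10395 ± 1535 CPM in wildtype cerebrum (n = 6) and 16267 ± 1379 CPM in wildtype cerebellum (n = 6). Ile-TAT-2 followed at 6226 ± 929 and 6543 ± 461 CPM in the same groups. Ile-TAT-1-1 stood at 3107 ± 575 and 3297 ± 336 CPM. In each wildtype group the ranges of these 3 isodecoders did not overlap with one another. The remaining AAT isodecoders were scarce: Ile-AAT-3-1 had 17.1 ± 4.61 and 43.8 ± 6.53 CPM, and Ile-AAT-2-1 had 8.04 ± 1.73 and 16.3 ± 2.79 CPM. Ile-AAT-2-1 rested on 25 to 43 counts per library in wildtype cerebrum and Ile-AAT-3-1 on 53 to 108. The sources do not say how a read fitting more than 1 isodecoder was handled, so the values of these scarce species are uncertain. All 5 passed the filter on low counts in both tissues, and the sums were ranked among the 50 nuclear anticodons by mean level. Ile-AAT ranked 25 in wildtype cerebrum and 15 in wildtype cerebellum, and Ile-TAT ranked 27 in both.

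**Figure D1:**
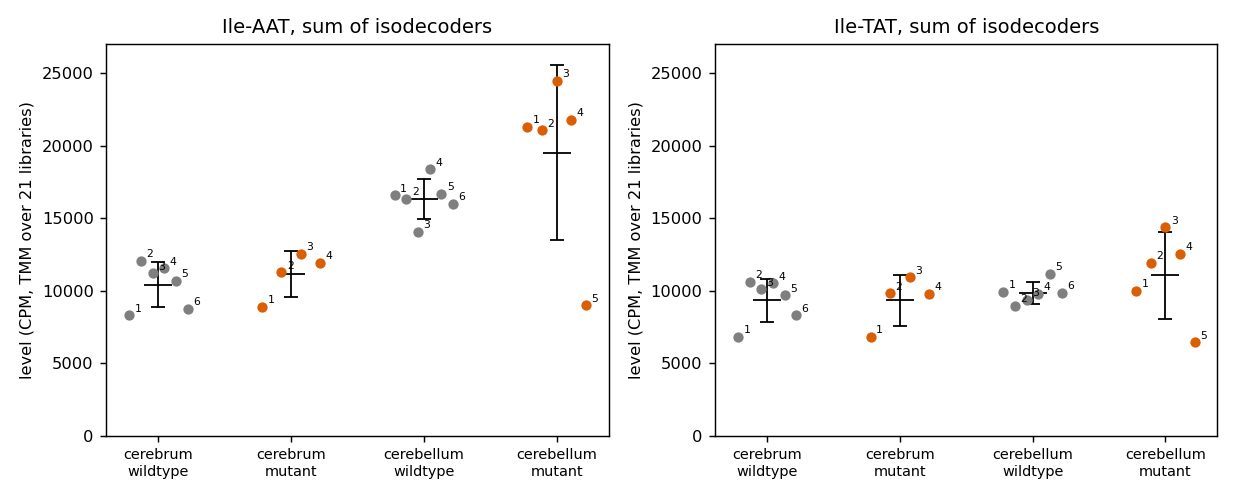
Level of Ile-AAT (left) and Ile-TAT (right), each summed over isodecoders, in CPM with TMM scaling over 21 libraries (y axis), by group (x axis). Points are libraries with their replicate numbers, and bars give the mean ± SD. All 6 wildtype cerebellum libraries exceed all 6 wildtype cerebrum libraries for Ile-AAT but not for Ile-TAT, and cerebellum mutant 5 is at 8999.8 CPM for Ile-AAT while the other cerebellum mutants are at 21051 to 24451.

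The first comparison asked how the isoleucine tRNAs differ between the brain regions. In wildtype libraries, AAT isodecoders rose from cerebrum to cerebellum and TAT isodecoders did not pass the test. Ile-AAT-1 had a lowest, median and highest level of 8273, 10916 and 12016 CPM in cerebrum and of 14011, 16382 and 18293 CPM in cerebellum. The groups did not overlap. The log2 fold change was 0.65 ± 0.16 (SE; edgeR's quasi-likelihood test, adjusted p = 6.4e-04). Ile-AAT-3-1 went from 11.5, 17.4 and 23.5 CPM to 36.1, 44.8 and 51.8 CPM, again without overlap, a log2 fold change of 1.35 ± 0.23 (edgeR, adjusted p = 7.4e-06). Ile-AAT-2-1 went from 5.96, 8.01 and 10.5 CPM to 13.5, 15.99 and 21.2 CPM, also without overlap, with a log2 fold change of 1.04 ± 0.21 (edgeR, adjusted p = 5.5e-05). Thus 3 of 5 isodecoders were called, all higher, and 0 lower. Among all 204 tRNAs tested in this comparison, 71.1% passed in either direction and 33.3% passed as higher. How many of the 204 had groups without overlap was not counted, so the lack of overlap is not shown to be particular to the AAT isodecoders.

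The TAT isodecoders did not pass the test between the regions with TMM scaling. Ile-TAT-2 had a lowest, median and highest level of 4605, 6603 and 7102 CPM in wildtype cerebrum against 6021, 6446 and 7292 CPM in wildtype cerebellum. The ranges overlap, and the log2 fold change of 0.07 ± 0.15 did not pass (edgeR, adjusted p = 0.66; 95% interval -0.22 to 0.37). Ile-TAT-1-1 had 2216, 3286 and 3734 CPM in cerebrum against 2948, 3185 and 3867 CPM in cerebellum, a log2 fold change of 0.09 ± 0.15 (edgeR, adjusted p = 0.61; 95% interval -0.21 to 0.38). The sums per anticodon were fitted with TMM factors of their own, so a sum can differ from its isodecoders through scaling. Summed by anticodon, Ile-AAT rose with a log2 fold change of 0.69 ± 0.15 (edgeR, adjusted p = 1.8e-04), a 1.61-fold higher level. The Ile-TAT sum had 0.12 ± 0.14 (edgeR, adjusted p = 0.42). The same test over all anticodons called 75% of 72. In bulk tissue, a smaller number of cells of one type and less RNA per cell cannot be told apart.

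Scaling decided the sign of part of this comparison. With library totals the AAT sum was 0.94 and with mitochondrial totals 0.69 higher on the log2 scale, both called. With library totals the TAT values were also larger than with TMM: 0.38 for Ile-TAT-1-1 (edgeR, adjusted p = 0.052), 0.37 for Ile-TAT-2 (adjusted p = 0.061) and 0.37 for their sum (adjusted p = 0.051), each with an unadjusted p under 0.05. When the libraries were scaled to the spike-in, the median log2 fold change of all 204 tRNAs shifted to -0.99, so values are read against that shift. Ile-AAT-1 then stood at -0.26 (edgeR, adjusted p = 0.28), Ile-TAT-1-1 at -0.81 (adjusted p = 3.3e-04) and Ile-TAT-2 at -0.82 (adjusted p = 2.2e-04). On that scale 67.6% of the tRNAs were called lower. The 3 AAT isodecoders, with 0.12 for Ile-AAT-2-1 and 0.44 for Ile-AAT-3-1, stood further above the median of all tRNAs than the TAT isodecoders did. Wildtype cerebellum has 1 deep library only; with that library alone against the 6 wildtype cerebrum libraries, the AAT sum had nearly the same log2 fold change (0.73) but did not pass (edgeR, adjusted p = 0.12). The tissues were deposited as separate tables, and a preparation step done tissue by tissue cannot be told apart from the tissue.

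Mutant libraries showed the same order. Ile-AAT-1 had 8861, 11234, 12514 and 11909 CPM in cerebrum mutants 1 to 4. In cerebellum mutants 1 to 5 it had 21228, 20979, 24352, 21687 and 8967 CPM. Of the 5 cerebellum mutants, 4 lay above every cerebrum mutant and mutant 5 lay within their range. The log2 fold change was 0.80 ± 0.19 (edgeR, adjusted p = 3.8e-04), and 0.99 without cerebellum mutant 5. Ile-AAT-2-1 had 1.46 ± 0.24 (edgeR, adjusted p = 5.6e-06) and Ile-AAT-3-1 had 1.58 ± 0.26 (edgeR, adjusted p = 8.6e-06), and for both all cerebellum mutants lay above all cerebrum mutants. Ile-TAT-1-1 had 0.15 ± 0.18 (edgeR, adjusted p = 0.46) and Ile-TAT-2 had 0.29 ± 0.18 (edgeR, adjusted p = 0.14). Here 3 of 5 isodecoders were called, all higher, where 72.5% of the 204 tRNAs were called in either direction and 35.8% were called higher. Overlap of groups was not counted over all tRNAs here either. The Ile-AAT sum had 0.91 ± 0.18 (edgeR, adjusted p = 6.4e-05) and the Ile-TAT sum 0.34 ± 0.17 (edgeR, adjusted p = 0.055), where 80.6% of the 72 anticodons were called. Without cerebellum mutant 5 the Ile-TAT sum had 0.49 (edgeR, adjusted p = 0.0011) and Ile-TAT-2 had 0.44 (edgeR, adjusted p = 0.0069), both past the threshold. The Ile-TAT sum also passed without cerebrum mutant 3 (0.44, adjusted p = 0.031), without cerebellum mutant 1 (0.38, adjusted p = 0.047) and without cerebellum mutant 2 (0.41, adjusted p = 0.035; all edgeR), so the TAT call in the mutants depended on which libraries were used. With library totals all 5 isodecoders were called higher, as were 47.1% of tRNAs.

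**Figure D2:**
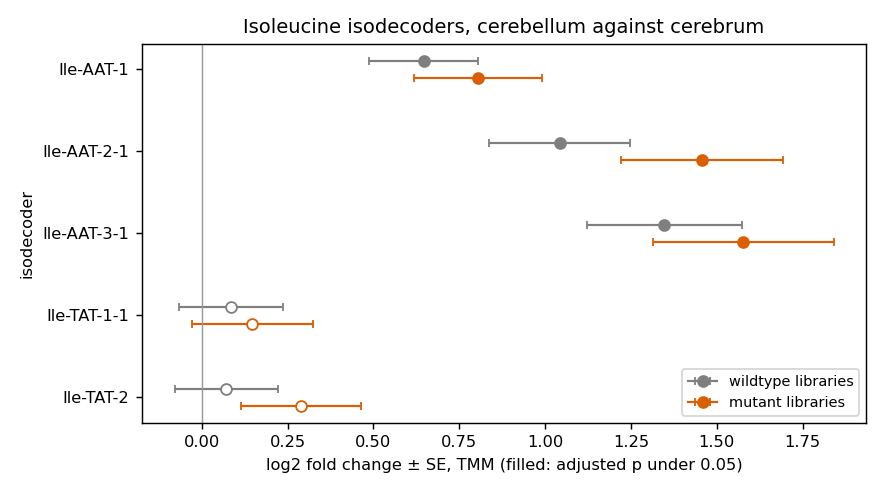
Log2 fold change of cerebellum against cerebrum with TMM scaling (x axis, ± SE) for the 5 isodecoders (y axis), in wildtype (grey) and mutant (orange) libraries; filled points have an adjusted p under 0.05 in edgeR's test. The 3 AAT isodecoders are filled and lie between 0.65 and 1.58, and both TAT isodecoders are open and lie between 0.07 and 0.29.

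The balance between the anticodons needs no scaling between libraries, because both are counted in the same library. The log2 ratio of Ile-TAT to Ile-AAT counts was -0.16 ± 0.07 in wildtype cerebrum (SD, n = 6), with a lowest, median and highest value of -0.28, -0.15 and -0.08. In wildtype cerebellum it was -0.73 ± 0.14 (n = 6), with -0.91, -0.72 and -0.58. No wildtype cerebellum library reached the range of wildtype cerebrum. The difference was -0.57 ± 0.06 (SE; exact two-sided permutation test, p = 0.0022, the smallest that 6 against 6 can give; adjusted p = 0.017 over 40 such tests). This test took the libraries as independent. If cerebrum and cerebellum libraries share animals, which the labels do not state, its p-value does not hold as given. In counts, wildtype cerebrum had 1.12 ± 0.05 Ile-AAT counts per Ile-TAT count and wildtype cerebellum had 1.66 ± 0.16. Ile-TAT thus made up 47.2% ± 1.17 of nuclear isoleucine counts in wildtype cerebrum and 37.6% ± 2.23 in wildtype cerebellum. Among the mutants the ratio was -0.38, -0.20, -0.20 and -0.29 in cerebrum replicates 1 to 4. In cerebellum it was -1.09, -0.82, -0.77, -0.79 and -0.48 in replicates 1 to 5. These groups did not overlap either, and the difference was -0.53 ± 0.11 (exact permutation test, p = 0.016, the smallest this design allows; adjusted p = 0.069).

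Nuclear isoleucine tRNAs as a whole took a larger part of the nuclear tRNA pool in cerebellum. They held 2.06% ± 0.33 of nuclear tRNA counts in wildtype cerebrum and 3.43% ± 0.35 in wildtype cerebellum (SD, n = 6 each), with no overlap between the groups (exact permutation test, p = 0.0022; adjusted p = 0.017). By medians in place of means, this difference (1.23), that of the Ile-TAT to Ile-AAT ratio (-0.57), that of the nuclear to mitochondrial ratio (0.50) and that of the Ile-AAT-3-1 share (0.117) had an adjusted p of 0.10 each between wildtype tissues (exact permutation test). The groups were fully separated in each, which already gives the test by medians its smallest p for 6 against 6. That test therefore could not decide whether these differences hold. Most of the larger share of nuclear counts was Ile-AAT, which went from 1.09% ± 0.17 to 2.14% ± 0.25, while Ile-TAT went from 0.97% ± 0.16 to 1.29% ± 0.13, a smaller difference that also left no overlap (highest 1.139% in cerebrum, lowest 1.160% in cerebellum). Against mitochondrial Ile-GAT, the log2 ratio of nuclear isoleucine counts was 2.66 ± 0.51 in wildtype cerebrum and 3.39 ± 0.17 in wildtype cerebellum, also without overlap (exact permutation test, p = 0.0022; adjusted p = 0.017). The mitochondrial tRNA itself had 3146 ± 763 CPM in wildtype cerebrum and 2516 ± 329 CPM in wildtype cerebellum, a log2 fold change of -0.32 ± 0.13 (edgeR, adjusted p = 0.030). That difference was not past the threshold without cerebrum wildtype 1 (-0.15, adjusted p = 0.24), which had the highest Ile-GAT level of its group at 4691 CPM. Leaving out cerebellum wildtype 2, 3, 4 or 6 also ended this call, as did DESeq2 (-0.30, adjusted p = 0.056), RLE factors, mitochondrial totals and library totals, and with the 1 deep wildtype cerebellum library alone the value was 0.01.

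**Figure D3:**
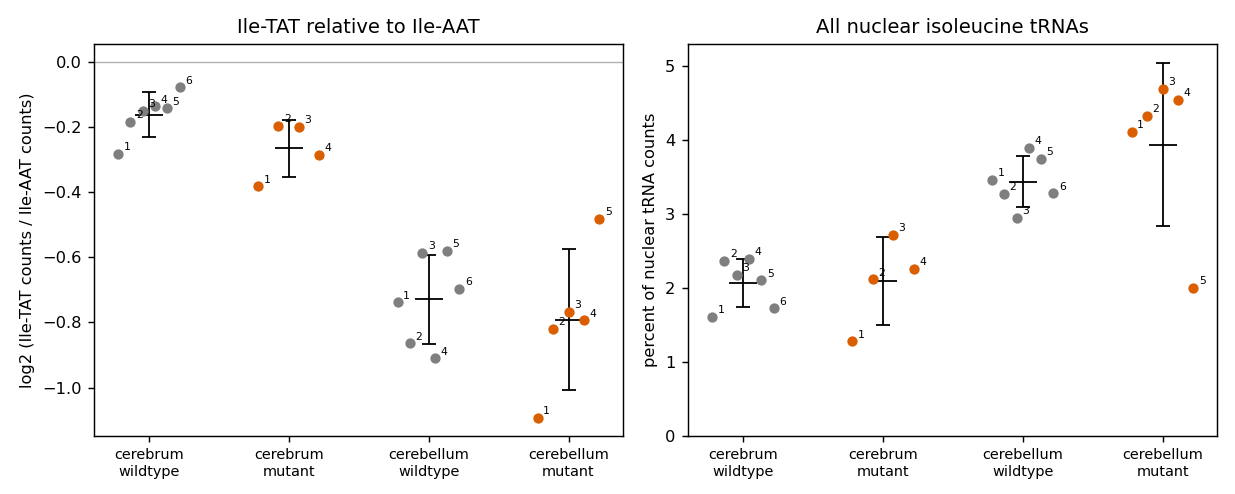
Left, log2 ratio of Ile-TAT to Ile-AAT counts; right, nuclear isoleucine tRNAs as a percent of nuclear tRNA counts (y axes), by group (x axes), with libraries as numbered points and bars for mean ± SD. In the left panel every cerebellum library lies below every cerebrum library of its genotype, and in the right panel cerebellum mutant 5, at 2.004%, lies among the cerebrum libraries.

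Within each anticodon the main isodecoder was the same in every library. Ile-AAT-1 made up 99.8% of Ile-AAT counts in wildtype cerebrum and 99.6% in wildtype cerebellum. Ile-AAT-3-1 was 0.163% ± 0.026 of Ile-AAT counts in wildtype cerebrum and 0.268% ± 0.030 in wildtype cerebellum (SD, n = 6 each; exact permutation test, p = 0.0022, adjusted p = 0.017), without overlap. In the mutants its share was 0.146% ± 0.008 (n = 4) in cerebrum and 0.245% ± 0.041 (n = 5) in cerebellum, also without overlap (exact permutation test, p = 0.016, adjusted p = 0.069). Ile-AAT-3-1 thus differed more between the tissues than Ile-AAT-1 did. The share of Ile-AAT-2-1 was 0.077% ± 0.012 in wildtype cerebrum and 0.1002% ± 0.016 in wildtype cerebellum, a difference that did not pass after adjustment (exact permutation test, p = 0.015, adjusted p = 0.069). Between genotypes in cerebrum, Ile-AAT-2-1 held 0.058% ± 0.004 of Ile-AAT counts in mutants against 0.077% ± 0.012 in wildtypes, which did not pass after adjustment either (exact permutation test, p = 0.019, adjusted p = 0.069). For the split of Ile-TAT, Ile-TAT-1-1 made up 33.2% ± 1.33 in wildtype cerebrum, 33.7% ± 1.16 in mutant cerebrum, 33.5% ± 1.55 in wildtype cerebellum and 31.6% ± 2.92 in mutant cerebellum, and Ile-TAT-2 made up the remainder. In cerebellum mutants 1 to 5 it was 28.9%, 29.5%, 33.9%, 30.5% and 35.5%, so mutants 1, 2 and 4 lay below every library of the other groups, the lowest of which was 31.1%. Within the shallow cerebellum libraries the mutant had 28.9% and the 5 wildtypes a mean of 33.2%, and within the deep ones the 4 mutants had a mean of 32.3% and the wildtype 34.7%. None of the 5 comparisons of the Ile-TAT split passed, the lowest unadjusted p being 0.16 (exact permutation test).

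**Figure D4:**
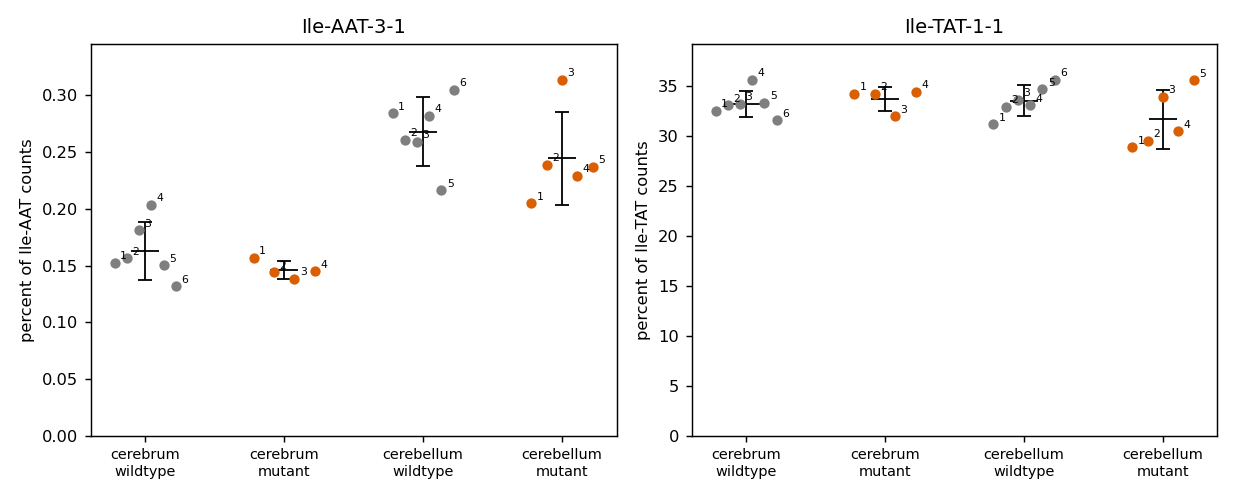
Ile-AAT-3-1 as a percent of Ile-AAT counts (left) and Ile-TAT-1-1 as a percent of Ile-TAT counts (right), by group (x axes), with libraries as numbered points and bars for mean ± SD. The Ile-AAT-3-1 share averages 0.163% in wildtype cerebrum and 0.268% in wildtype cerebellum, and the Ile-TAT-1-1 share averages 31.6% to 33.7% in the 4 groups.

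The next comparison asked what the Polr3a mutation did to isoleucine tRNAs in cerebrum. Relative to the whole tRNA pool, no isodecoder passed the test between mutants and wildtypes, and the groups overlapped for all 5. The Ile-AAT-1 levels given above, 8861 to 12514 CPM in the 4 mutants and 8273 to 12016 CPM in the wildtypes, overlap, with 1 mutant above all wildtypes, and the log2 fold change was 0.03 ± 0.13 (edgeR, adjusted p = 0.91). Ile-TAT-2 had 4484, 6462, 7432 and 6426 CPM in mutants 1 to 4 and 4605 to 7102 CPM in the wildtypes, with 1 mutant above and 1 below all wildtypes, a log2 fold change of -0.07 ± 0.14 (edgeR, adjusted p = 0.79). Ile-TAT-1-1 had 2328, 3356, 3489 and 3367 CPM in mutants 1 to 4 and 2216 to 3734 CPM in the wildtypes, a log2 fold change of -0.05 ± 0.14 (edgeR, adjusted p = 0.84). Mutant 1 was the lowest of the mutants for all 3 of these isodecoders. Ile-AAT-3-1 had -0.15 ± 0.22 (edgeR, adjusted p = 0.69) and Ile-AAT-2-1 had -0.39 ± 0.24 (edgeR, adjusted p = 0.26). With edgeR's test, 0 of 5 isodecoders passed, against 19.7% of the 208 tRNAs tested and 14% of the 186 nuclear ones. None had an unadjusted p under 0.05, where 67 of the 208 tRNAs did. DESeq2 also called 0 of 5, and its share over all tRNAs was not counted. The sums had log2 fold changes of -0.05 ± 0.13 for Ile-AAT (edgeR, adjusted p = 0.90) and -0.14 ± 0.14 for Ile-TAT (edgeR, adjusted p = 0.62), where 11.1% of 72 anticodons and 4% of the 50 nuclear ones passed. Their distance from the isodecoder values reflects the separate TMM factors of the sums. With mitochondrial totals, Ile-AAT-1 and the Ile-AAT sum both had -0.36.

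Relative to mitochondrial tRNAs, all 5 isodecoders were lower in mutant cerebrum. With libraries scaled to their mitochondrial counts, the log2 fold changes were -0.36 ± 0.14 for Ile-AAT-1 (edgeR, adjusted p = 0.029), -0.46 ± 0.15 for Ile-TAT-2 (adjusted p = 0.010) and -0.44 ± 0.15 for Ile-TAT-1-1 (adjusted p = 0.017). They were -0.55 ± 0.23 for Ile-AAT-3-1 (adjusted p = 0.045) and -0.78 ± 0.26 for Ile-AAT-2-1 (edgeR, adjusted p = 0.013). On this scale 53.4% of all tRNAs passed, all of them lower, and the median log2 fold change over the 208 tRNAs was -0.41, where TMM scaling gave -0.03. The values of Ile-AAT-1, Ile-TAT-2, Ile-TAT-1-1 and Ile-AAT-3-1 thus lay near the median of all nuclear tRNAs, -0.46. The scarce Ile-AAT-2-1 lay lower, at -0.78. Scaled to the spike-in, all 5 were below 0 and only Ile-AAT-2-1 passed (-0.73 ± 0.31, edgeR, adjusted p = 0.049). Neither the share called nor the median of all tRNAs was counted on that scale. These spike-in values therefore cannot be set against the other tRNAs. The direct ratio of nuclear isoleucine to mitochondrial Ile-GAT counts was 2.38 ± 0.30 in mutants and 2.66 ± 0.51 in wildtypes on the log2 scale, a difference within the spread (exact permutation test, p = 0.32, adjusted p = 0.51). Ile-GAT itself had a log2 fold change of 0.21 ± 0.17 with TMM scaling (edgeR, adjusted p = 0.38), and 0.44 without cerebrum wildtype 1 (edgeR, adjusted p = 0.0099).

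The authors' own tests called both isoleucine anticodons in cerebrum. In the authors' deposited table per anticodon for cerebrum, Ile-AAT had a log2 fold change of -0.38 (adjusted p = 0.021, DESeq2 per the submitters' processing notes) and Ile-TAT of -0.48 (adjusted p = 0.0079), with 45.2% of the table's rows under 0.05. In the authors' deposited table per isodecoder for cerebrum, all 5 isoleucine rows also had an adjusted p under 0.05, from 0.0045 for Ile-TAT-2 to 0.022 for Ile-AAT-3-1, as did 57.6% of its rows. The values in the authors' deposited table per isodecoder are positive, 0.38 for Ile-AAT-1 to 0.80 for Ile-AAT-2-1. Its sign was opposite to mutant over wildtype, recomputed with the same size factors, in 210 of 210 rows, so these positive values stand for lower levels in the mutants. The size factors behind the authors' deposited tables were solved from the tables' mean levels and lay within 0.024 log2 units of median-of-ratios factors over the mitochondrial tRNAs alone. With those factors in edgeR, the 5 isodecoders had log2 fold changes of -0.38 to -0.80, all called, where 55.3% of tRNAs were called.

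**Figure D5:**
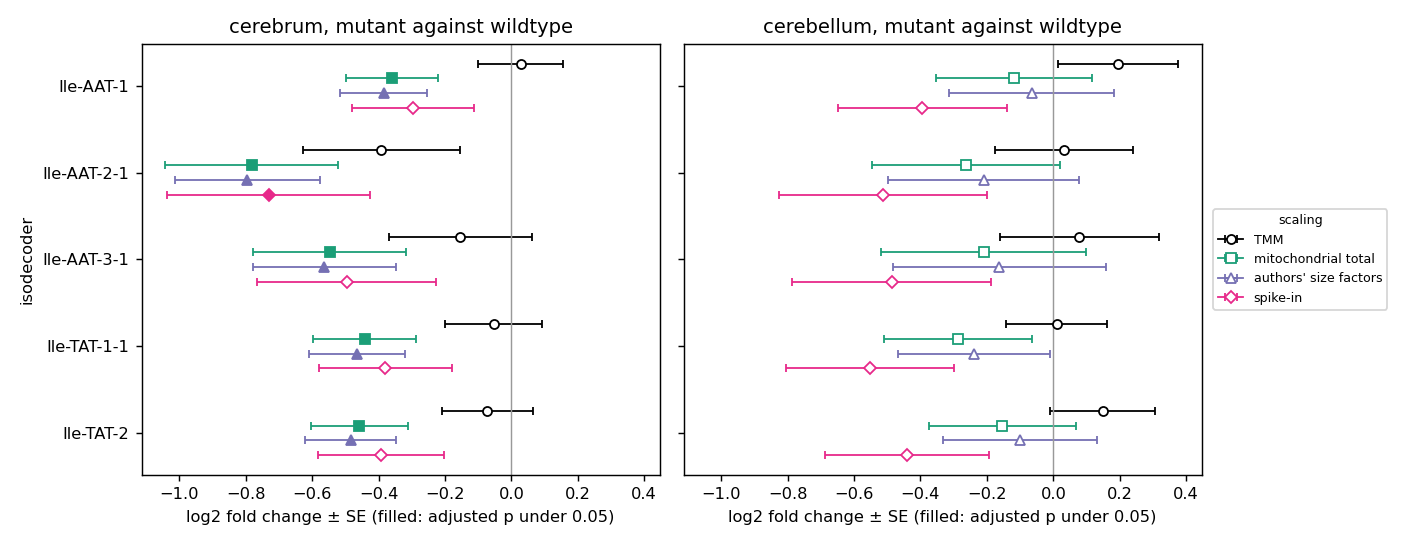
Log2 fold change of mutant against wildtype (x axis, ± SE) for the 5 isodecoders (y axis) in cerebrum (left) and cerebellum (right) under 4 scalings; filled symbols have an adjusted p under 0.05 in edgeR's test. In cerebrum, all 5 are filled with mitochondrial totals and with the authors' size factors and none with TMM; in cerebellum none is filled, and all 5 are above 0 with TMM and below 0 with the other scalings.

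In cerebellum the genotype difference hung on 1 library. With all 5 mutants, the log2 fold changes with TMM scaling were 0.19 ± 0.18 for Ile-AAT-1 (edgeR, adjusted p = 0.64) and 0.15 ± 0.16 for Ile-TAT-2 (edgeR, adjusted p = 0.69). For Ile-TAT-1-1, Ile-AAT-2-1 and Ile-AAT-3-1 they were 0.01, 0.03 and 0.08, each under its standard error. With edgeR's test 0 of 5 passed, against 2.48% of the 202 tRNAs tested. None of the 5 had an unadjusted p under 0.05, where 40 of the 202 did. DESeq2 called 0 of 5, and its share over all tRNAs was not counted. The Ile-AAT sum had 0.14 ± 0.19 (edgeR, adjusted p = 0.75) and the Ile-TAT sum 0.05 ± 0.16 (adjusted p = 0.85), and 0 of 71 anticodons passed. With mitochondrial totals, with the authors' size factors and with the spike-in, all 5 isodecoders were below 0 and none passed, although 26.2% of tRNAs were called lower with mitochondrial totals and 15.8% with the authors' size factors. With the spike-in the share of all tRNAs called was not counted. In the authors' deposited table per isodecoder for cerebellum, the 5 rows had log2 fold changes of -0.07 to -0.24 and the lowest adjusted p was 0.47, while 24.4% of its rows were under 0.05.

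Cerebellum mutant 5 stood apart from the other mutants. The Ile-AAT sum had 21285, 21051, 24451 and 21755 CPM in mutants 1 to 4 and 8999.8 CPM in mutant 5, against 14062, 16441 and 18361 CPM as the lowest, median and highest wildtype. Of the 5 mutants, 4 were above all 6 wildtypes and 1 was below all 6. Ile-TAT showed a milder form of the same picture: 9975, 11921, 14361 and 12553 CPM in mutants 1 to 4, 6441 CPM in mutant 5, and 8968 to 11158 CPM in the wildtypes. Mutant 5 was the deepest cerebellum library and had 19.3% mitochondrial counts; the part of these in its values was not tested.

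Without mutant 5, Ile-AAT-1 was called higher in the mutants with a log2 fold change of 0.39 ± 0.09 (edgeR, adjusted p = 0.0088) and so was Ile-TAT-2 with 0.32 ± 0.10 (edgeR, adjusted p = 0.035). These are 2 of 5 isodecoders, where 16.2% of the 204 tRNAs tested passed in either direction and 7.35% were higher. Mutant 5 had the lowest Ile-AAT-1 level of the mutants, so leaving it out selects on the value tested. The p-values without it, here and below, therefore do not show that the mutants are higher. With all 5 mutants Ile-AAT-1 did not pass (edgeR, adjusted p = 0.64). The Ile-AAT sum was also called higher, 0.35 ± 0.10 (edgeR, adjusted p = 0.033), and the Ile-TAT sum, 0.22 ± 0.11, was not (adjusted p = 0.22), where 15.5% of anticodons passed. Leaving out mutants 1 and 5, the libraries with the highest mitochondrial shares, gave 0.42 for Ile-AAT-1 (edgeR, adjusted p = 0.012) and 0.41 for Ile-TAT-2 (adjusted p = 0.010), but 0.38 for the Ile-AAT sum (adjusted p = 0.052). With the depth class as a covariate and mutant 5 left out, Ile-AAT-1 had 0.37 ± 0.11 (edgeR, adjusted p = 0.047) and Ile-TAT-2 0.18 ± 0.11 (adjusted p = 0.30), and the Ile-AAT sum did not pass (0.30 ± 0.13, adjusted p = 0.12). Ile-AAT-1 is nearly all of the Ile-AAT sum, so these are not separate results but almost the same counts under separate scaling and adjustment. The share of all tRNAs called was not counted with mutants 1 and 5 left out or with the depth class. Relative to mitochondrial counts no isodecoder passed: without mutant 5, Ile-AAT-1 had 0.09 ± 0.16 (edgeR, adjusted p = 0.70) and Ile-TAT-2 0.03 ± 0.17 (adjusted p = 0.89), on a scale where the median of all tRNAs was -0.32 and 24% of them passed, all lower.

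Measures that need no scaling did not pass between genotypes. The log2 ratio of Ile-TAT to Ile-AAT was -0.27 ± 0.09 in cerebrum mutants and -0.16 ± 0.07 in wildtypes (SD, n = 4 and 6), a difference of -0.10 ± 0.05 (exact permutation test, p = 0.067, adjusted p = 0.19). In cerebellum it was -0.79 ± 0.22 in mutants and -0.73 ± 0.14 in wildtypes (n = 5 and 6; exact permutation test, p = 0.58, adjusted p = 0.75). Nuclear isoleucine tRNAs held 2.09% ± 0.60 of nuclear counts in cerebrum mutants and 2.06% ± 0.33 in wildtypes (exact permutation test, p = 0.94). In cerebellum mutants 1 to 5 they held 4.11%, 4.33%, 4.69%, 4.55% and 2.004%, against 2.95% to 3.90% in the wildtypes (exact permutation test, p = 0.33, adjusted p = 0.51). The genotype effects were also compared between the tissues in 1 fit over all 21 libraries. The difference of effects, cerebellum minus cerebrum, was 0.16 ± 0.24 for Ile-AAT-1 and 0.22 ± 0.23 for Ile-TAT-2. It passed for 0 of 5 isodecoders with edgeR, with DESeq2 and at an unadjusted p under 0.05. Of 204 tRNAs, 4.9% passed with edgeR and 30 had an unadjusted p under 0.05. The share called by DESeq2 was not counted.

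Among the 49 other nuclear anticodons, the level of Ile-AAT over the 21 libraries was most like those of Trp-CCA (Pearson r of log2 CPM 0.98), Leu-CAA (0.96) and Ala-TGC (0.94). Ile-TAT was most like Met-CAT (0.91), followed by Ile-AAT (0.77) and Trp-CCA (0.76). After the group means were taken out, Ile-AAT and Ile-TAT correlated at 0.907. That was not particular to isoleucine: Ile-AAT correlated at 0.961 with Trp-CCA and 0.922 with Leu-CAA. Ile-TAT correlated at 0.921 with Met-CAT and 0.914 with Trp-CCA. These are descriptions, with no test, of anticodons counted in the same libraries, which share depth and composition.

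Other tRNAs with the features of each anticodon were counted, leaving isoleucine out. Among 30 isodecoders of the remaining anticodons that start with adenosine and are read as inosine, 16 were called higher and 9 lower in wildtype cerebellum against cerebrum, with a median log2 fold change of 0.53, against a median of -0.07 over 182 nuclear tRNAs. Over all 204 tRNAs, 33.3% were called higher and 37.7% lower in that comparison. The 3 AAT isodecoders, at 0.65 to 1.35, lay on the same side. Among 14 isodecoders of the other families whose genes carry introns (Tyr-GTA, Leu-CAA and Arg-TCT), 4 were called higher and 6 lower, near those shares, with a median of -0.09, beside 0.09 and 0.07 for Ile-TAT-1-1 and Ile-TAT-2. Between genotypes in cerebrum, 8 of the 30 isodecoders read as inosine were called lower and 0 higher with TMM scaling (median -0.22), and 4 of the 14 from families with introns were lower and 0 higher (median -0.06), where 11.5% of all tRNAs were called lower. The lower ones include Ala-AGC-1-1, Val-AAC-2 and Thr-AGT-6-1 among the former and Leu-CAA-4-1, Arg-TCT-5-1 and Tyr-GTA-1 among the latter, while no isoleucine isodecoder was among those called.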

How the data were processed

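The libraries were made by QuantM-tRNA-seq. The submitters' processing notes name the build mm10 and, without versions, the tools cutadapt, Bowtie2, featureCounts and DESeq2. Raw counts per tRNA were deposited for each tissue. The authors' deposited tables of their own tests hold a log2 fold change, raw and adjusted p-values, and a mean signal (counts divided by size factors, averaged over libraries), per the file headers.

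Library sizes and tests leave out the spike-in row, 0.222% to 1.08% of counts. Each tissue's whole table was tested with edgeR 4.0.16 (limma 3.58.1, R 4.3.3): TMM scaling, filterByExpr with a minimum count of 10, robust quasi-likelihood fits, Benjamini-Hochberg adjustment and a threshold of 0.05. A standard error is the log2 fold change over the square root of F, and a 95% interval is 1.96 standard errors to each side. Tissue contrasts and differences of effects used all 21 libraries and the 204 shared tRNAs. Anticodon counts are sums over isodecoders, tested the same way but with TMM factors and an adjustment of their own. Small differences between a sum and its isodecoders can therefore come from scaling. Ratios and shares were compared by exact two-sided permutation tests (smaller tail doubled), adjusted over 40 tests, 8 measures in 5 comparisons. All 5 members, both sums and mitochondrial isoleucine were named, with the 3 most alike anticodons of each sum and up to 6 called members of each list; Leu-CAA-4-1 and the other list members named were picked from these. The members and lists were chosen with earlier results of these data known. The steps were tested on simulated data. No library pair agreed within sampling noise. Alternatives were RLE factors, library totals, mitochondrial totals, spike-in, nuclear tRNAs only, DESeq2 1.42.0, no filter, sex or depth class as covariate, a replicate block and leaving out libraries. The authors' size factors, leaving out the shallow cerebellum libraries, and leaving out cerebellum mutant 5 together with another setting were chosen after seeing the data.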

Additional observations from a re-analysis of the deposited data

Results flagged for a closer look

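In groups of 4 to 6 libraries, 60 sets of values were checked for a library whose gap to the nearest other exceeded Dixon's 95% limit. Chance gives about 1 in 20 for a single set. The sets are not independent, because Ile-AAT-1 is nearly all of the Ile-AAT sum and the 2 Ile-TAT shares are complements. Single events are thus counted more than once, and the number flagged cannot be set against chance. In all, 9 were flagged. Cerebellum mutant 5 accounts for 4 of them. Its Ile-AAT-1 level was 8967 CPM and its Ile-AAT sum 8999.8 CPM, where the other cerebellum mutants had at least 20979 and 21051 CPM. Its nuclear isoleucine tRNAs held 2.004% of nuclear counts (95% Wilson interval 1.99% to 2.02%, counting error only), where the others held 4.11% to 4.69%. Its log2 ratio of nuclear to mitochondrial isoleucine counts was 1.97, where the others had 3.17 to 3.64. No cause was tested.

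Cerebrum mutant 1 had 2328 CPM of Ile-TAT-1-1, where the other cerebrum mutants had 3356 to 3489 CPM. Its Ile-AAT-1 share of Ile-AAT counts was 99.7846% against 99.7989% to 99.8012%, and its 95% Wilson interval, 99.7389% to 99.8224%, covers the other values. In cerebrum mutant 3, Ile-TAT-1-1 made up 31.9% of Ile-TAT counts (95% Wilson interval 31.5% to 32.3%) and Ile-TAT-2 68.1%, where the other cerebrum mutants had 34.2% to 34.4% Ile-TAT-1-1. Cerebrum wildtype 1 had a log2 ratio of nuclear to mitochondrial isoleucine counts of 1.69, where the other wildtypes had 2.54 to 3.01.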

How the results depend on the processing

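All values here are log2 fold changes unless named otherwise. Over the tests of the 5 isodecoders, both sums and mitochondrial Ile-GAT in 5 comparisons, no filter and sex as a covariate kept all 40 directions and calls. In cerebrum, mutant against wildtype, mitochondrial totals gave -0.36 for the Ile-AAT sum and -0.45 for the Ile-TAT sum, and the authors' size factors gave -0.38 and -0.48, all called. Signs also turned for Ile-AAT-1 (-0.36 with mitochondrial totals, -0.30 with the spike-in, -0.38 with the authors' size factors), Ile-GAT (-0.18, -0.13 and -0.21 in the same order), Ile-TAT-1-1 (0.0073 with RLE factors and with DESeq2, 0.0037 with nuclear tRNAs only) and the Ile-AAT sum (0.0077 with library totals, 0.032 with nuclear tRNAs only). Of these, the called ones were Ile-AAT-1 with mitochondrial totals and with the authors' size factors.

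In cerebellum, mutant against wildtype, mitochondrial totals gave -0.12, -0.26, -0.21, -0.29 and -0.15 for Ile-AAT-1, Ile-AAT-2-1, Ile-AAT-3-1, Ile-TAT-1-1 and Ile-TAT-2, -0.031 for Ile-GAT, and -0.12 and -0.20 for the Ile-AAT and Ile-TAT sums. The spike-in gave -0.39, -0.51, -0.49, -0.55 and -0.44 for the 5 in the same order, -0.19 for Ile-GAT, and -0.40 and -0.48 for the sums. The authors' size factors gave -0.066, -0.21, -0.16, -0.24 and -0.10, and -0.066 and -0.15 for the sums. Depth class as a covariate gave -0.27 for Ile-AAT-2-1, -0.18 for Ile-TAT-1-1 and -0.079 for the Ile-TAT sum, and, with mutant 5 also left out, -0.15 for Ile-AAT-2-1 and -0.079 for Ile-TAT-1-1. Mitochondrial totals without mutant 5 gave -0.10 for Ile-AAT-2-1, -0.13 for Ile-TAT-1-1, -0.039 for Ile-GAT and -0.020 for the Ile-TAT sum, and library totals gave -0.0092 for Ile-TAT-1-1. None of these was called.

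The spike-in turned the difference of genotype effects to -0.10 (Ile-AAT-1), -0.17 (Ile-TAT-1-1), -0.046 (Ile-TAT-2), -0.060 (Ile-GAT), -0.10 (Ile-AAT sum) and -0.088 (Ile-TAT sum). It turned wildtype cerebellum against cerebrum to -0.26, -0.81 and -0.82 for Ile-AAT-1, Ile-TAT-1-1 and Ile-TAT-2 and to -0.25 and -0.81 for the sums, and the mutant tissue comparison to -0.35, -0.98 and -0.86 and to -0.35 and -0.90, the TAT values being called. In wildtypes the median of all 204 tRNAs on that scale was -0.99 and 67.6% were called lower, so these calls are not particular to TAT. The share in mutants is not given here. Without the shallow libraries the wildtype values were 0.73 for the Ile-AAT sum, no longer called with 1 cerebellum library left, assumed to vary like the other groups, 0.0080 for Ile-GAT, and -0.42 for the log2 ratio of Ile-TAT to Ile-AAT (adjusted p = 0.63; 1 library against 6 cannot pass). Ile-GAT was 0.078 with library totals in the mutant tissue comparison, where the Ile-TAT sum was 0.54 and called. By medians the log2 ratio of Ile-TAT to Ile-AAT differed by -0.57 between wildtype tissues (exact permutation test, adjusted p = 0.10, from the smallest p that medians can give there). That of nuclear to mitochondrial isoleucine differed by 0.018 between genotypes in cerebellum.

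Replicate numbers are shared between groups, but same-numbered libraries did not deviate together in every pair (r over 0.1 in 2 of 4 cerebrum pairs, 2 of 5 cerebellum pairs, 4 of 6 wildtype pairs and 1 of 4 mutant pairs), so the numbers were not taken to pair the libraries. Between tissues, same-numbered libraries had the same sex in both genotypes, and 4 of 6 wildtype pairs and 0 of 4 mutant pairs correlated best with their own number, so a shared animal across tissues is possible and is not stated in the labels. With the replicate block, the Ile-TAT sum in the mutant tissue comparison was 0.50, Ile-TAT-2 was 0.46 (edgeR, adjusted p = 0.0034) and Ile-GAT was -0.31 (edgeR, adjusted p = 0.049), all 3 called, while Ile-AAT-1 in cerebrum was -0.044, Ile-TAT-1-1 in cerebellum -0.0029, and the Ile-GAT difference of effects -0.0058. The share of all tRNAs called with the replicate block was not counted. The main tests between tissues took the libraries as independent, so their p-values do not hold as given if animals were shared.

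Leaving out each library in turn gave these ranges. Cerebrum genotype: -0.11 to 0.073 for the Ile-AAT sum, -0.23 to 0.0058 for the Ile-TAT sum, -0.034 to 0.18 for Ile-AAT-1, -0.11 to 0.12 for Ile-TAT-1-1, -0.17 to 0.11 for Ile-TAT-2. Cerebellum genotype: 0.058 to 0.35 for the Ile-AAT sum (called without mutant 5 only), -0.046 to 0.22 for the Ile-TAT sum, -0.068 to 0.17 for Ile-AAT-2-1, -0.13 to 0.29 for Ile-AAT-3-1, -0.11 to 0.14 for Ile-TAT-1-1. Difference of effects: -0.10 to 0.18 for Ile-TAT-1-1, -0.0054 to 0.43 for Ile-AAT-3-1, -0.10 to 0.16 for Ile-GAT. Mutant tissue comparison: 0.23 to 0.49 for the Ile-TAT sum, -0.0042 to 0.27 for Ile-TAT-1-1. The log2 ratio of Ile-TAT to Ile-AAT ranged from -0.14 to 0.013 for genotype in cerebellum and from -0.035 to 0.12 for the difference of effects, and stayed called between wildtype tissues (-0.60 to -0.53). That of nuclear to mitochondrial isoleucine ranged from -0.35 to 0.061 and from -0.091 to 0.34 in the same order. The percent of nuclear counts that is isoleucine differed by -0.18 to 0.30 between genotypes in cerebrum. The within-anticodon percentages ranged from -0.026 to 0.0092 (Ile-AAT-1) and from -0.024 to 0.0031 (Ile-AAT-3-1) for the difference of effects, from -0.015 to 0.0028 for Ile-AAT-2-1 between genotypes in cerebellum, and from -0.13 to 0.77 for Ile-TAT-1-1 and -0.77 to 0.13 for Ile-TAT-2 between wildtype tissues. Depth limits the scarce Ile-AAT-2-1, with 25 to 43 counts per wildtype cerebrum library; Wilson intervals cover counting error only.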
